A study of Mus musculus with 4 samples.

Results

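The Oas and Oasl genes encode the 2′-5′-oligoadenylate synthetase family, and chromatin accessibility at 8 of them was compared between wild-type (WT) and histone H3.3 conditional knockout (cKO) bone marrow-derived macrophages (BMDMs). The 8 genes, Oasl2, Oasl1, Oas2, Oas3, Oas1c, Oas1b, Oas1g and Oas1a, lie on mouse chromosome 5, and each was described by all ATAC-seq peaks that overlapped its gene body or 10 kb on either side (mm10, GENCODE vM21). The gene bodies are chr5:114896936-114912234 for Oasl2 and chr5:114923240-114937915 for Oasl1 on the plus strand. Farther along the chromosome lie Oas2 (chr5:120730333-120749853), Oas3 (chr5:120753098-120777661), Oas1c (chr5:120800194-120812514), Oas1g (chr5:120876142-120887613) and Oas1a (chr5:120896256-120907521) on the minus strand and Oas1b (chr5:120812635-120824163) on the plus strand. This rule used position only and no measured value, but the 8 genes were chosen with earlier results of these data known. Merging the 4 deposited peak lists wherever peaks shared at least 1 bp gave 71243 accessible regions genome-wide, of which 17 lay at these genes and held 53 peaks, at most 1 for each library in a region. Of the 17, 7 lay in the windows of a pair of neighbouring genes and were counted once, except in values given per gene.

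OAS enzymes bind double-stranded RNA, a sign of viral infection, and then join ATP into short 2′-5′-linked oligoadenylates (2-5A). These serve as second messengers of the antiviral response. The genes are classical interferon-stimulated genes, whose promoters hold the interferon-stimulated response element (ISRE), a binding site of interferon-activated transcription factors. The Oasl proteins add ubiquitin-like domains to the OAS fold, and Oasl1 is known to limit translation of Irf7 mRNA.

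All 4 libraries came from mice on a C57BL/6 background, 8 to 10 weeks of age, whose marrow was cultured in L929-conditioned medium, for 6 to 8 days by the labels and to day 7 for ATAC-seq by the study's text, and the labels name no stimulus. WT cells (n = 2) were H3f3a fl/fl H3f3b fl/fl without Cre, and cKO cells (n = 2) carried the same floxed alleles with LysM cre/cre, a Cre driven from the Lyz2 locus in myeloid cells, so that both genes for H3.3 were targeted. The study notes that H3f3b deletion varied between cKO samples. The labels call the libraries biological replicates, and p-values measure only the spread between these samples. In such bulk cultures, fewer cells with an open site and less opening per cell cannot be told apart.

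The peak lists held 55742 and 64939 peaks in WT and 51955 and 60884 in cKO. Read depth is unknown because only peaks were used here, and the longer list in each genotype was replicate 2. A peak's strength is given as the percentile of its area within its own list, where 100 is the largest area. Area grows with both the height and the width of a peak. An H3f3a region at chr1:180811715-180812055 was called in WT at percentiles 5.02 and 19.1 and in neither cKO library, and a region in H3f3b at chr11:116023771-116024892 lay at 94.2 and 95.5 in WT against 87.0 and 81.4 in cKO. The H3f3b promoter region overlapped, at 23.7 and 34.3 in WT against 28.7 and 42.5 in cKO. The H3f3a promoter region stayed strong, at 96.0 and 97.2 against 93.4 and 94.1. Not all 9 regions at the 2 genes are given, and whether these peaks reflect the deletion was not tested. Of 7 macrophage markers, 6 had a promoter peak in all 4 libraries and Spi1 had none. Csf1r lay at 73.7 and 85.3 in WT against 56.4 and 61.4 in cKO and Mertk at 89.3 and 92.8 against 73.9 and 79.1, both lower in cKO without overlap. Cd68 was slightly higher in cKO, at 91.2 and 89.7 against 92.7 and 92.7, and Adgre1, Itgam and Fcgr1 overlapped. Of 12 markers of other cells, 9 had none, the dendritic cell markers Flt3 and Zbtb46 had one in all 4 libraries, and the neutrophil marker Ly6g had one in the cKO libraries only, at percentiles 30.3 and 17.8. Levels in the 2 markers called everywhere ranged from 24.2 to 74.1 in WT and from 39.6 to 56.5 in cKO, with Flt3 higher and Zbtb46 lower in both cKO libraries. The granulocyte progenitor markers Elane and Mpo had no promoter peak. The part of these marker differences in the results at the Oas and Oasl genes was not tested.

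The ISRE was searched as its core, GAAA, any 2 bases and GAAA again, on both strands, where matches can overlap. Each of the 7 regions that held the start of a member had at least 1 match, 11 matches in all, and the 10 other regions had none. Within 100 bp of the summit the core was found in 6 of 17 regions (35.3%), against 3.90% of all 71243 regions. In the RefSeq promoter table (GRCm38.p6, 250 bases before to 50 after a start), 6 members had an entry and 4 of these held the core (66.7%), against 3.43% of 32817 promoters. Oas2 and Oas1b had no entry. The promoters below are shown because 2 of them, those of Oasl1 and Oas1g, had a peak in cKO only, and the others were open in both genotypes. They are the bases just upstream of the RefSeq start, read in the direction of the gene, with ISRE cores in capitals. They lie at chr5:114922990-114923239 on the plus strand for Oasl1 and, on the minus strand, at chr5:120777660-120777909 for Oas3, chr5:120812515-120812634 for Oas1c, chr5:120887614-120887863 for Oas1g and chr5:120907526-120907775 for Oas1a. For Oas1c only the 120 bases up to the start of Oas1b, its divergent neighbour, are given.
Oasl1: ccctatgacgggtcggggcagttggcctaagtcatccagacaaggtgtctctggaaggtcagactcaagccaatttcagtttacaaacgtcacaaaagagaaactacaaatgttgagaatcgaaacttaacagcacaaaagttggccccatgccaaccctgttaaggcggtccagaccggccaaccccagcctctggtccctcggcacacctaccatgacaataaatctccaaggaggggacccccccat
Oas3: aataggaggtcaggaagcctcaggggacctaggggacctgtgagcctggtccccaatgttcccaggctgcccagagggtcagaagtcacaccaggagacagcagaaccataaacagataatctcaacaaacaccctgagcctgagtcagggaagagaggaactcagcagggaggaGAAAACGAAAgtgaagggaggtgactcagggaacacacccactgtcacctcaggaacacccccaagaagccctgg
Oas1c: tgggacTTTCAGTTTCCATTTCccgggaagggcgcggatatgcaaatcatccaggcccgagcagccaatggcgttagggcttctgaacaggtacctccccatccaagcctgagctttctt
Oas1g: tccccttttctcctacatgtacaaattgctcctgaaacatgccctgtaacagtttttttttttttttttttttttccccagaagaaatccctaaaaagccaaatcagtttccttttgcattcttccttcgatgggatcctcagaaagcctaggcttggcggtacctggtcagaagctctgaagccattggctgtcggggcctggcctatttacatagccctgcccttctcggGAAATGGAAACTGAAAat
Oas1a: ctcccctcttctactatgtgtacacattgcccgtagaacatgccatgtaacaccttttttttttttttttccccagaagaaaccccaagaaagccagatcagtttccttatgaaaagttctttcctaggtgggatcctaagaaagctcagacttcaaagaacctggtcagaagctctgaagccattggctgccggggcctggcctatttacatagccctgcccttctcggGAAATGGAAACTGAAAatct

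Oas1g, Oas1a and the Oas1c/Oas1b promoter held the same 16 letters, a pair of overlapping cores, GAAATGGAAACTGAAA, which reads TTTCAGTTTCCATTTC in the direction of Oas1c. The 300-base promoters of Oas1g and Oas1a were identical at 261 of 306 aligned positions (85.3%), while other pairs of the 6 reached 45.9% to 51.6%. No core lay in the 250 bases of Oasl1 shown. Counted from the gene start, with negative positions upstream, the core in its open region began at −273, that of Oas2 at −71 and that of Oas3 at −73. The 2 cores of Oasl2 began 533 and 562 bp downstream of the start, inside exon 1. These 4 windows of 30 bases, in the direction of the gene with the core in capitals, are shown because their places differ from those of the Oas1 genes, where the cores at Oas1b, Oas1g and Oas1a began between −24 and −12. They lie at chr5:114922957-114922986 for Oasl1, chr5:120749905-120749934 for Oas2, and chr5:114897459-114897488 and chr5:114897488-114897517 for Oasl2.
Oasl1: gactaggctcTTTCTCTTTCcaaacctcag
Oas2: cacacttgagTTTCGATTTCctaggttcct
Oasl2 at 533: ctccctgcagTTTCACTTTCaattcttgtc
Oasl2 at 562: caaagcttggTTTCTGTTTCcagtttctcc

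More of the Oas and Oasl sequence was called open in cKO BMDMs. The 17 regions comprised 10 called in all 4 libraries (shared), 4 called in both cKO and in no WT library (gained), 2 called in both WT and in no cKO library (lost) and 1 called in cKO replicate 2 only. Gained regions made up 23.5% of the 17, against 3.72% of all regions, and lost regions 11.8%, against 7.25%. The gained regions were the Oasl1 promoter, the Oas1g promoter, a site between Oasl2 and Oasl1 and an intron of Oas1e that falls in the Oas3 window. The lost regions were weak intronic peaks of Oas1g and Oas1a. With a stricter peak threshold only the Oasl1 promoter was still called gained and none lost, against 3.81% and 7.06% of all regions. With lists cut to equal length 5 regions were gained and none lost, against 7.04% and 7.3% of all regions.

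Peaks at the 8 genes numbered 12 and 12 in WT against 14 and 15 in cKO. They covered 5387 and 5832 bp in WT (mean 5609.5 ± 315, SD, n = 2) and 7213 and 8558 bp in cKO (7885.5 ± 951, SD, n = 2). The genotypes did not overlap in either measure. The differences of 2.5 peaks and 2276 bp each had an exact two-sided permutation p of 0.333, the smallest that 2 against 2 libraries allow. Whole lists covered 28.4 and 32.7 Mb in cKO and 31.0 and 35.2 Mb in WT, and these ranges overlapped. Most of the added length lay at the Oasl locus, where 6 regions covered 1983 and 2330 bp in WT and 3750 and 4333 bp in cKO. The 11 regions at the Oas locus covered 3404 and 3502 bp in WT and 3463 and 4225 bp in cKO, and these ranges overlapped (difference 391 bp, exact permutation p = 0.667).

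**Figure D1:**
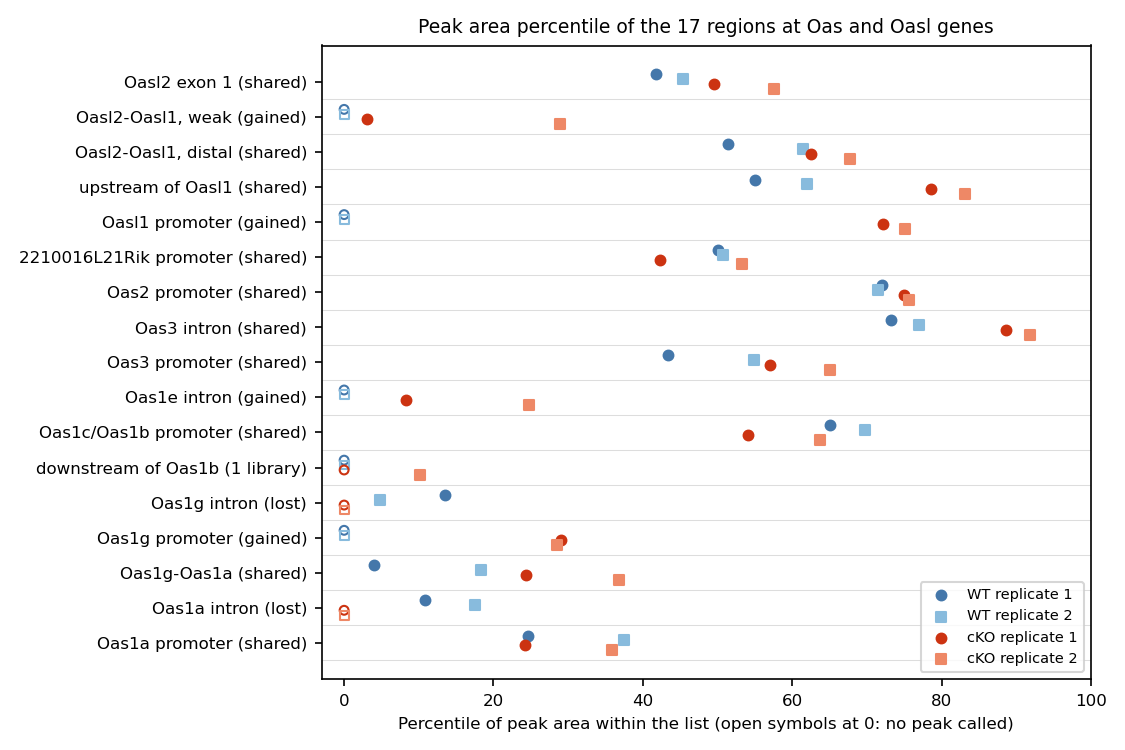
Percentile of peak area within its own list (x axis, 0 to 100) for the 17 regions at the Oas and Oasl genes (y axis), with a symbol for each of the 4 libraries and open symbols at 0 where no peak was called. Gained regions have filled symbols in cKO only, led by the Oasl1 promoter at 72.1 and 75.1, and lost regions have filled symbols in WT only, none above 17.5.

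At the Oasl1 promoter, a peak was present in both cKO libraries and absent from both WT lists. The region, chr5:114922897-114923629, spanned the Oasl1 start (ENSMUSG00000041827.15) and the start of the antisense transcript Gm13822, and it lay over the Oasl1 promoter bases printed above. Its cKO peaks were 724 and 652 bp wide with areas of 1126 and 1305, at percentiles 72.1 and 75.1. It was thus stronger than most peaks of its lists, where the median gained region of the genome had a mean percentile of 18.97 in the cKO libraries. Of the 7 promoter regions at the 8 genes, which include that of a neighbour, 2 were gained and none lost, against 1.62% gained and 2.40% lost among 10708 promoter regions. When the uncalled WT values were set to the lowest area in their lists, the cKO minus WT difference was 2.65 (log2). That value depends on the floor that was filled in. No p-value is given for it, because both WT values were filled in and have no measured spread.

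Immediately upstream, a shared region at chr5:114921630-114922634, in an intron of Gm13822, was stronger in cKO. It lay at percentiles 55.0 and 62.0 in WT against 78.6 and 83.1 in cKO, so the genotypes did not overlap. Shared regions were also compared with limma on quantile-normalised log2 peak area over all 44820 shared regions, with Benjamini-Hochberg adjustment. By this test the region was 1.04 ± 0.084 (log2, SE) higher in cKO (limma adjusted p = 7.10e-05), a larger rise than in 98.1% of shared regions. Its peak was also wider, 497 and 812 bp in WT against 882 and 1005 bp in cKO, and its edge toward Oasl1 ended 923 and 778 bp before the gene start in WT and 729 and 606 bp before it in cKO. The peak therefore reached closer to the start in both cKO libraries.

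Oasl2 encodes an active synthetase with ubiquitin-like domains (ENSMUSG00000029561.17), and its exon 1 region at chr5:114896863-114897948 was wider and stronger in cKO. Percentiles were 41.8 and 45.3 in WT against 49.5 and 57.5 in cKO, and widths 479 and 481 bp against 635 and 1086 bp. The WT peaks began 442 and 445 bp downstream of the Oasl2 start and the cKO replicate 1 peak 293 bp downstream, and only the cKO replicate 2 peak covered the start. Both printed Oasl2 cores lay inside the peak in every library. The log2 area was 0.48 ± 0.13 higher in cKO (limma adjusted p = 0.0165). This call was lost without WT replicate 2 (adjusted p = 0.116) and when the summit −log10 p replaced area (0.081, log2; adjusted p = 0.387).

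Between Oasl2 and Oasl1 were 2 more regions. The shared one, at chr5:114916587-114917248, lay at percentiles 51.4 and 61.4 in WT against 62.5 and 67.7 in cKO and was 0.43 ± 0.10 higher in cKO (log2, SE; limma adjusted p = 0.00939), a call lost without WT replicate 1 (adjusted p = 0.0726) and for the summit −log10 p (adjusted p = 0.393). The gained one, at chr5:114913611-114914135, was weak, with percentiles 3.09 and 28.9 in cKO. Downstream of Oasl1, the promoter of the neighbour 2210016L21Rik at chr5:114942029-114942473 served as a local contrast. Its percentiles overlapped (50.1 and 50.7 in WT, 42.4 and 53.2 in cKO), and the log2 difference of 0.036 ± 0.14 did not pass the test (limma adjusted p = 0.854).

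**Figure D2:**
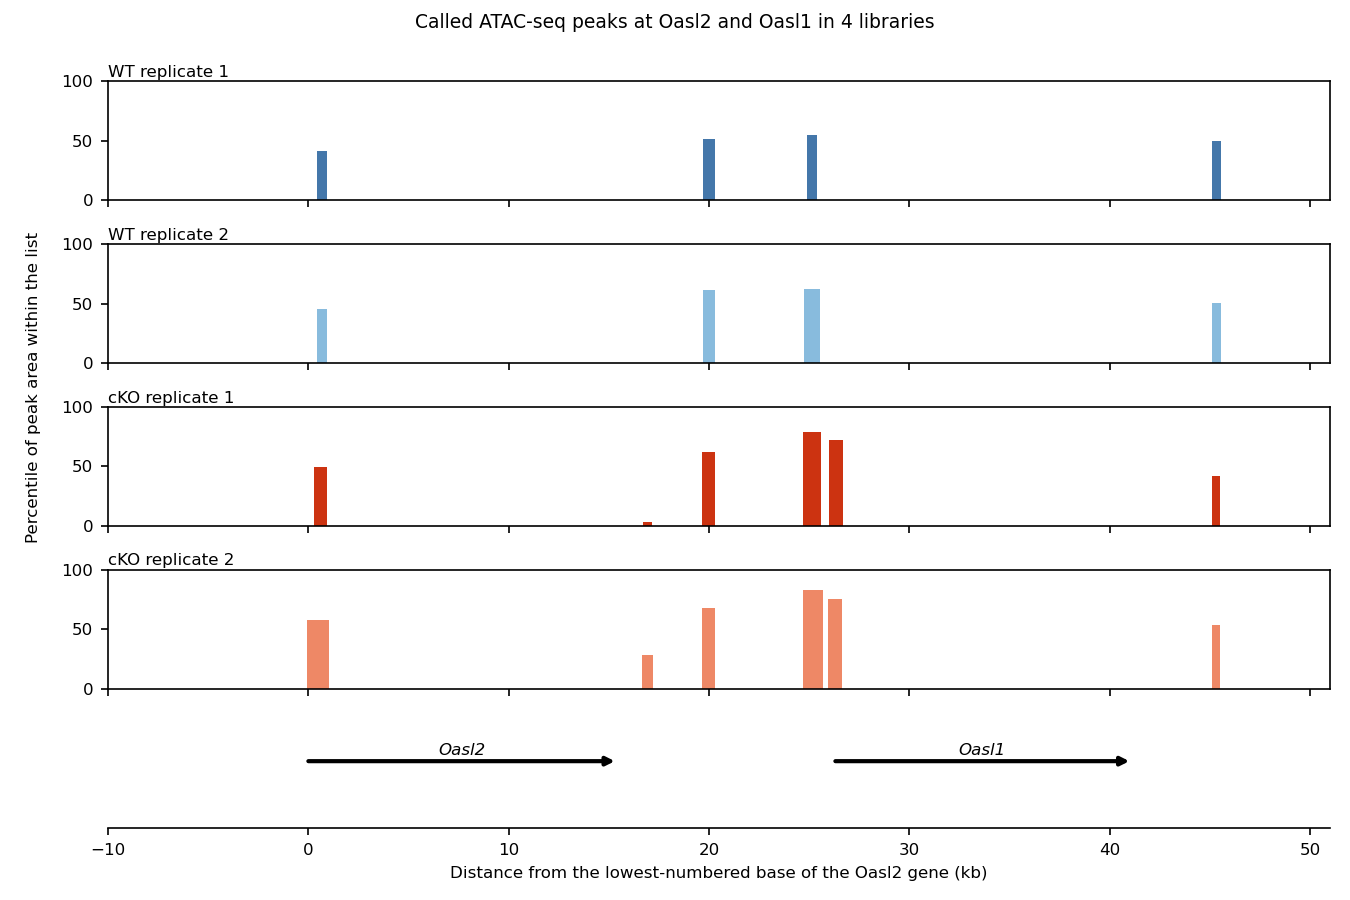
Called peaks of each library (panels) at Oasl2 and Oasl1, with distance from the Oasl2 start in kb on the x axis, the percentile of peak area within the list on the y axis, bars as wide as the peaks, and arrows for gene bodies and direction. The cKO panels carry a peak at the Oasl1 start that the WT panels lack, and 6 peaks in all against 4 in each WT panel.

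At the Oas locus, both shared regions at the start of Oas3 were higher in cKO. Among the shared regions of the locus, the Oas3 intronic region had the largest log2 difference. By percentile, the shared region between Oas1g and Oas1a differed more (19.5 against 15.1). Oas3 (ENSMUSG00000032661.9) encodes the largest synthetase, built of repeated OAS units, and prefers long double-stranded RNA. Its intronic region at chr5:120775295-120776093, centred 1967 bp inside the gene, lay at percentiles 73.2 and 77.0 in WT against 88.6 and 91.8 in cKO. The log2 area was 0.88 ± 0.069 higher in cKO (limma adjusted p = 6.32e-05). The Oas3 promoter at chr5:120777423-120777993 lay at 43.3 and 54.9 in WT against 57.0 and 65.0 in cKO and was 0.54 ± 0.11 higher (log2, SE; limma adjusted p = 0.00511). Both regions did not overlap between genotypes, and the intronic peak was the stronger in every library.

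The Oas2 promoter, at chr5:120749441-120750338 (ENSMUSG00000032690.16), was already well open in WT. Its percentiles were 72.1 and 71.5 in WT against 74.9 and 75.6 in cKO, a narrow range without overlap. The log2 difference of 0.24 ± 0.098 did not pass the threshold (limma adjusted p = 0.0772), passed it without WT replicate 1 (adjusted p = 0.0433), with median scaling (0.0339) and with the replicate block (0.0302), and was 0.14 (log2) without WT replicate 2 and −0.049 for the summit −log10 p. The gained region at chr5:120787145-120787528, in an intron of the neighbour Oas1e, was weak, at 8.31 and 24.7 in cKO.

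The Oas1 genes differed among themselves in their values. Oas1b, whose full-length form confers resistance to flaviviruses and which GENCODE lists as a polymorphic pseudogene (ENSMUSG00000029605.16), shares a divergent promoter with Oas1c (ENSMUSG00000001166.17). That promoter, at chr5:120812291-120812904, was the only shared region lower in percentile in both cKO libraries, at 65.1 and 69.7 in WT against 54.1 and 63.7 in cKO. The log2 difference of −0.23 ± 0.097 did not pass the test (limma adjusted p = 0.0896), although it did under the stricter peak threshold (−0.26, log2; adjusted p = 0.0485). It carries the same 16-base pair of cores as Oas1g and Oas1a. A peak at chr5:120831125-120831325, downstream of Oas1b, was called in cKO replicate 2 only, at percentile 10.1.

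Oas1g and Oas1a encode active synthetases, and their promoters, alike in sequence, were called in different sets of libraries. The Oas1g promoter (ENSMUSG00000066861.14), at chr5:120887523-120887771, had peaks of 247 and 249 bp in cKO at percentiles 29.1 and 28.5 and none in WT. The Oas1a promoter (ENSMUSG00000052776.10), at chr5:120907439-120907828, was called in every library, at 24.6 and 37.4 in WT against 24.2 and 35.8 in cKO, and the log2 difference of 0.064 ± 0.15 did not pass the test (limma adjusted p = 0.762). The difference between the 2 promoters was itself not tested. Only 61.5% of the 32-base words in the Oas1g promoter region and 77.2% of those in the Oas1a promoter region occurred once in the genome, the others at most 2 times. Reads from such near-identical copies may have been assigned to either gene, so these calls are uncertain.

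Between Oas1g and Oas1a, a shared region at chr5:120891160-120891446 lay at percentiles 3.99 and 18.3 in WT against 24.4 and 36.8 in cKO. It was 0.73 ± 0.17 higher in cKO (log2, SE; limma adjusted p = 0.00846), a call lost without WT replicate 1 (adjusted p = 0.130). The lost regions were weak in WT: the Oas1g intron at chr5:120883994-120884216 at 13.6 and 4.86, and the Oas1a intron at chr5:120906826-120907219 at 10.9 and 17.5. In the Oas1g intron 51.6% of 32-base words were unique, against 98.9% in the Oas1a intron. Only 6 of the 17 regions had every word unique. The share was 84.4% between Oas1g and Oas1a and 92.6% in the Oas3 intron. It was 90.2% in the region upstream of Oasl1, where a word occurred up to 28639 times. Between Oasl2 and Oasl1 it was 84.2% in the shared and 91.3% in the gained region.

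**Figure D3:**
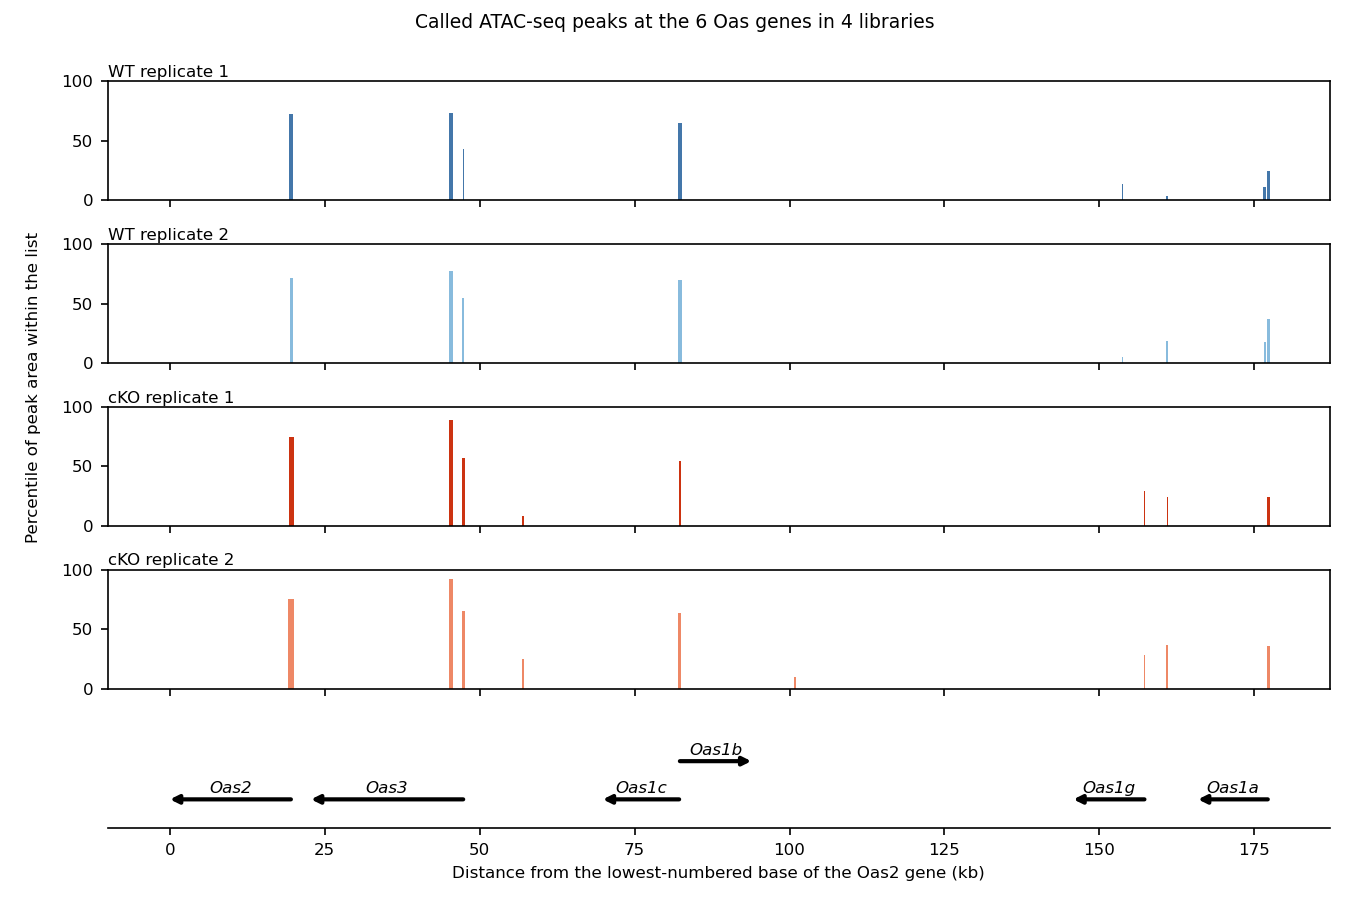
Called peaks of each library (panels) at Oas2, Oas3 and the Oas1 genes, with distance from the lowest-numbered base of Oas2 in kb on the x axis, the percentile of peak area within the list on the y axis, bars as wide as the peaks, and arrows for gene bodies and direction. The Oas2 and Oas3 promoters and the Oas3 intron carry a peak in every panel, and the Oas1g promoter carries a peak in the cKO panels only.

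Over the 10 shared regions, both cKO percentiles lay above both WT percentiles in 7 and below in 1, and 2 overlapped. Among all shared regions, 22.2% lay above and 35.1% below. By limma 6 of the 10 were higher and none lower at an adjusted p under 0.05, against 20.7% higher and 20.8% lower of all 44820. With median scaling in place of quantile normalisation the calls over all shared regions split into 12943 higher and 7499 lower, against 9299 and 9310, and 7 of the 10 were higher and none lower. At an unadjusted p under 0.05, the Oas2 promoter was also higher and the Oas1c/Oas1b promoter lower, which makes 7 higher and 1 lower of 10, against 25.4% and 25.0% of all shared regions. The median log2 difference was 0.45, against 0.0071 over all shared regions, and 9 of 10 differences were positive.

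**Figure D4:**
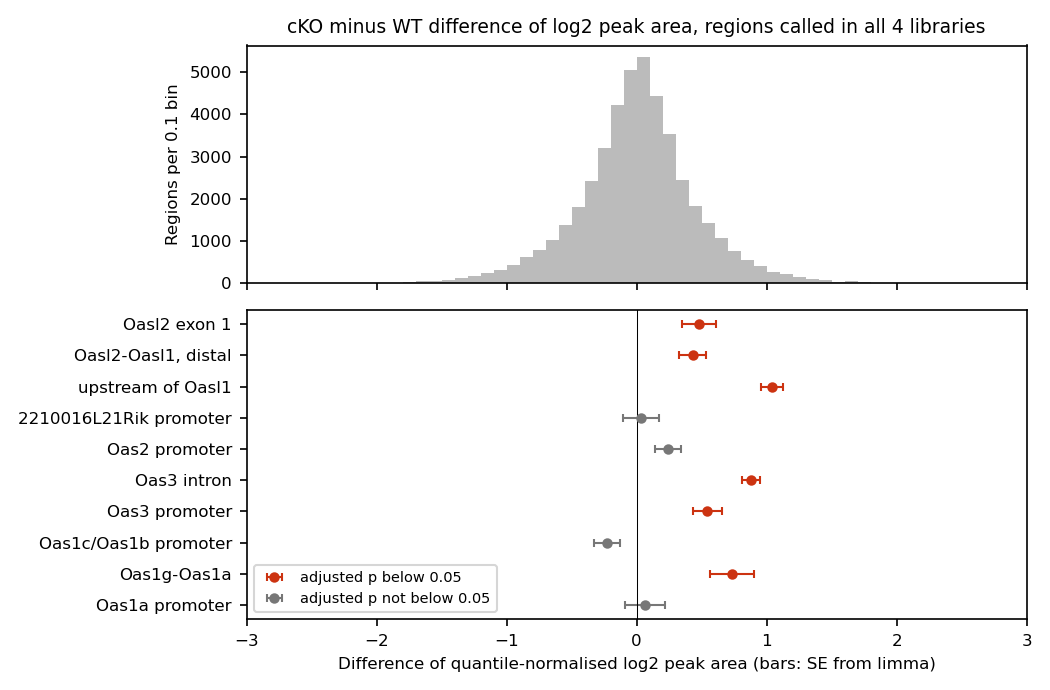
The upper panel counts shared regions per bin of the cKO minus WT difference in quantile-normalised log2 peak area (x axis; a few regions lie beyond the axis), and the lower panel shows the 10 shared regions at the Oas and Oasl genes with bars for the limma SE, red where the adjusted p was below 0.05. The region upstream of Oasl1 (1.04) and the Oas3 intron (0.88) lie farthest right, and the Oas1c/Oas1b promoter (−0.23) is the only point left of 0.

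Each gene was also given as the mean percentile over its regions, with uncalled regions counted as 0. Of the 8 genes, 6 were higher in both cKO libraries, 1 was lower and 1 overlapped, against 17.3% higher and 33.0% lower among 16345 protein-coding genes with a region. The 8 genes are not separate cases, since 7 of the 17 regions lay in 2 windows and here count for both genes. The only region of Oas2, for example, also counts for Oas3. With uncalled regions at 0, Oasl1 differed most, with 31.3 and 34.8 in WT against 51.7 and 61.6 in cKO, a difference of 23.6 that exceeded those of 98.9% of genes. Over regions called in all 4 libraries only, its difference was 9.48, below those of Oas1g (19.5), Oasl2 (13.7) and Oas3 (10.2), and with a 2 kb flank it was 48.0. Oasl2 followed, with 37.0 and 42.2 against 48.4 and 59.3. All its regions except that in exon 1 also count for Oasl1, and the mean percentile of the exon 1 region differed by 9.97. Oas1g had 5.85 and 7.73 against 17.8 and 21.8, Oas3 47.1 and 50.8 against 57.2 and 64.3, and Oas1a 9.87 and 18.3 against 19.4 and 25.3. The higher value of Oas1a came from the Oas1g promoter and the region between the genes, which also count for Oas1g, and with a 2 kb flank the difference was −7.60. Oas2 differed by 3.50. Oas1c had 65.1 and 69.7 against 54.1 and 63.7, and Oas1b overlapped, with 32.6 and 34.9 against 27.1 and 36.9. Both genes hold the same promoter region, and Oas1b differs only by its further region, called in cKO replicate 2 only. Over regions called in all 4 libraries only, both genes differed by −8.49. Every gene without overlap had the smallest exact permutation p possible, 0.333, and Oas1b had 1.0.

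Genes were also ordered within each genotype by these means, so the order depends on how many regions of a gene were uncalled and counted as 0. Oas2 and Oas1c had 1 region each, called in every library. Oas1b holds the Oas1c promoter region too, but its mean is lowered by a further region that was uncalled in WT. In WT, Oas2 (mean 71.8) and Oas1c (67.4) stood highest, followed by Oas3 (49.0), Oasl2 (39.6), Oas1b (33.7), Oasl1 (33.1), Oas1a (14.1) and Oas1g (6.79), and the ranges of Oas1b and Oasl1 overlapped. In cKO, Oas2 (75.3) was again highest. Oas3 (60.8), Oas1c (58.9), Oasl1 (56.7) and Oasl2 (53.9) had overlapping ranges, and Oas1b, Oas1a (22.4) and Oas1g (19.8) stood lowest, with Oas1a and Oas1g overlapping. Within each library, Oasl1 and Oasl2 stayed below Oas3 and Oas1c in both genotypes, and Oasl1 lay below Oasl2 in WT and above it in cKO. This change of order rests on counting the uncalled Oasl1 promoter as 0 in WT. Over regions called in all 4 libraries only, Oasl1 lay above Oasl2 in both WT libraries and below it in both cKO libraries.

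**Figure D5:**
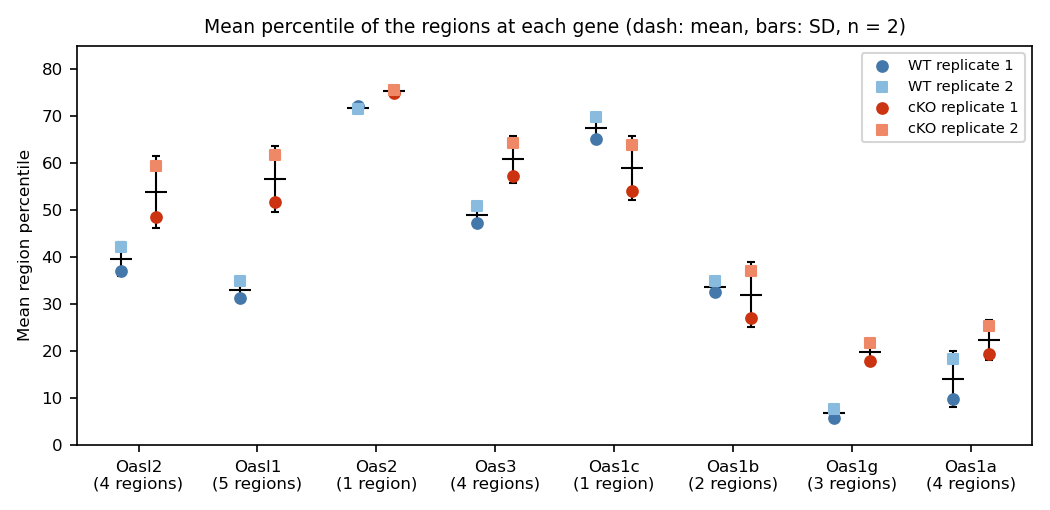
Mean percentile of peak area over the regions of each gene (y axis, uncalled regions as 0) for the 8 genes (x axis), with a symbol per library, a dash for the genotype mean and bars for the SD (n = 2). Both cKO symbols lie above both WT symbols at 6 genes and below them at Oas1c, and the widest gap, at Oasl1, rests on counting its uncalled WT promoter as 0.

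Genes that act with the OAS family were counted in the same way. The list of 6 held the further Oas1 genes Oas1d, Oas1e, Oas1f and Oas1h, the pathway inhibitor Abce1 and the 2-5A phosphodiesterase Pde12. Its 9 regions included 1 gained, the Oas1e intron already given, and 1 lost, the Oas1a intron, which also falls in the Oas1d window. Each makes up 11.1% of the 9, against 3.72% gained and 7.25% lost among all regions. The list is not separate from the 8 genes. Both Oas1e regions, that intron and the Oas3 promoter, were already counted there. So were both Oas1d regions, the Oas1a intron and the Oas1a promoter. Oas1f and Oas1h had no region. At 8 genes of type I interferon signalling, 50 regions included 2 gained, at Jak1 and Usp18, and 4 lost, of which Ifnar2 had 2 and Jak1 and Usp18 the others. These shares of 4.0% and 8.0% lie near those of all regions, 3.72% and 7.25%, and 25% of these genes had a gained and 37.5% a lost region. A gained region was found at 5 of the 8 Oas and Oasl genes (62.5%) and a lost one at 2 (25%), against 11.1% and 21.8% of all protein-coding genes with a region. These 5 genes rest on 4 regions, since the site between Oasl2 and Oasl1 counts for both genes and the Oas1g promoter also falls in the Oas1a window. The median difference in mean percentile was 10.0 for the 8 genes, −4.50 for the 4 genes of the 2-5A list with a region, −2.40 for the signalling list and −1.95 for all genes. Within the 2-5A list the differences were 14.2 for Oas1e, −7.60 for Oas1d, −3.87 for Abce1 and −5.13 for Pde12.

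The mean over the 8 genes was 37.6 and 41.3 in WT against 43.8 and 51.1 in cKO. Of 10289 protein-coding genes elsewhere with at least 3 regions, the closest to this pattern by Euclidean distance over the 4 libraries were Tmem192 (distance 1.03, 7 regions), Cxxc1 (1.55, 5 regions) and Bard1 (1.61, 6 regions).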

How the data were processed

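ATAC-seq, in which Tn5 transposase tags open chromatin, was measured in 2 WT and 2 cKO libraries, grouped by their labels. Per the submitters' processing notes and the study's methods, the authors aligned reads with Bowtie2 2.5.1 to mm10 and called peaks per library with Genrich at default settings. Removal of duplicates and any Tn5 shift are not given in the sources used here. The deposited files held, for each peak, its area as a signal value (at least 200), a summit −log10 p and a score. The score was not used. The study's own differential test used reads, which were not analysed here.

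Peaks overlapping by 1 bp were merged. Regions were annotated with GENCODE vM21, with promoters from 1 kb upstream to 100 bp downstream of a start. Areas were ranked within each list. Shared regions were tested with limma 3.58.1 (R 4.3.3; trended eBayes, genotype only) on quantile-normalised log2 area, with Benjamini-Hochberg adjusted p and a threshold of 0.05, and tested on simulated data. Single values used an exact two-sided permutation test over 6 label assignments. Overlaps and motifs used Python 3.11.15 with pandas 2.3.3, scipy 1.17.1 and pysam 0.24.0, and promoter alignments biopython 1.88. Uniqueness was counted for 32-base words.

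The genes named were the 8 members with all their regions, listed pathway genes with a gained or lost region, the deleted genes, neighbours whose promoter fell in a listed region, and the 3 genes of most similar pattern. Oas1e, named for its gained region, is one of the listed pathway genes. Some items of the lists are not reported here. The members, lists and motifs were chosen with earlier results of these data known. Alternatives were a stricter peak threshold, equal list lengths, call and window rules, scaling, summit p, a replicate block and leaving out each library.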

Additional observations from a re-analysis of the deposited data

How the results depend on the processing

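Of 4 gained and 2 lost regions, 1 and 0 were called with a stricter peak threshold, which left 9 regions at the 8 genes. Over all 35429 regions of that setting, 3.81% were gained and 7.06% lost. With lists of equal length, 5 of 16 were gained and 0 lost, against 7.04% and 7.3% of all regions. All 4 gained regions were kept under equal lengths, 50% cover and summit windows. Leaving out a library keeps every gained and lost call by construction, and it gave 4 to 5 gained and 2 to 2 lost, against 3.88% to 9.16% and 7.66% to 14.4% of all regions. A 2 kb flank gave 3 gained and 2 lost of 12 regions, against 3.72% and 7.25% of all regions. Under the stricter threshold limma called 3 higher and 1 lower of 5 shared regions that could be tested, against 4254 and 4350 of all 22934 tested. Leaving out a library gave 5 to 6 higher and 0 lower, against 13.7% to 19.5% and 12.7% to 20.5%. The region upstream of Oasl1, the Oas3 intron and the Oas3 promoter kept their calls under every alternative in which they were tested. Reversed signs occurred in the Oas2 promoter for the summit −log10 p (−0.049, log2), the Oas1a promoter without WT replicate 1 (leave-one-out range −0.023 to 0.16), and the 2210016L21Rik promoter without WT replicate 2 (range −0.10 to 0.15) or cKO replicate 2 (−0.0085). They also occurred in the mean percentile of Oas2 for the summit p (−4.17), of Oas1b without cKO replicate 1 (−13.3 to 3.21 over the libraries left out) and of Oas1a with a 2 kb flank (−7.60). The cause was not tested. Genes higher in both cKO libraries numbered 4 and genes lower in both 2 under the stricter threshold, where Oas1g and Oas1a had no region. In the other settings that kept all 4 libraries, genes higher numbered 5 to 6 and genes lower 1 to 2. Shares over all genes were not computed for these settings.

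Median scaling called 12943 shared regions higher and 7499 lower, against 9299 and 9310, shifted the median of all by 0.097 (log2) against 0.0071, and called the Oas2 promoter higher (adjusted p = 0.0339). Replicate numbers were shared by the genotypes only as numbers (correlation of deviations 0.126 in both pairs, across regions, equal by construction with 2 pairs). With the replicate block limma called 10229 higher and 10176 lower, and 7 of 10 Oas and Oasl regions higher, adding the Oas2 promoter (adjusted p = 0.0302). Area exists only where a peak was called, depth is unknown, and 2 libraries per genotype allow no permutation p under 0.333.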

Other observations

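A further 3 motifs were counted near the summits of the 17 Oas and Oasl regions. The GAS motif (TTCNNNGAA) lay within 100 bp of the summit in 2 regions, against 6.10% of all regions. The AP-1 motif (TGANTCA) lay there in 2, against 16.7%, at the Oas3 promoter and the Oas3 intron. The PU.1 motif (GAGGAAGT), for the factor that keeps macrophage enhancers open, lay there in 1, against 11.01%, in the region upstream of Oasl1. These counts are descriptions, and a match is not a binding site.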
